A study of Mus musculus with 4 samples.

Results

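Cytokine receptor genes other than those of the IL-2 receptor were followed in cultured regulatory T (Treg) cells of mice. The 10 genes were Il6ra, Il6st, Il7r, Il4ra, Il21r, Il10ra, Il27ra, Il1r1, Il1r2 and Ifngr1, chosen by name, and every array probe carrying one of these names was read. They had 18 of the 56310 probes with a usable spot on every array, and 16 of the 18, from 9 genes, were among the 33606 probes tested. RNA of C57BL/6 mice was hybridised to 4 single-colour Agilent arrays, 2 labelled as control with the genotype Junbfl/fl and 2 labelled Junbfl/flCd4-Cre, in which Cre is driven by the Cd4 promoter in T cells. Both groups therefore carry the floxed Junb alleles. JunB is a subunit of the transcription factor AP-1. Sorted naive CD4 T cells of both genotypes were cultured for 3 days with anti-CD3 bound to the plate at 1 μg/ml and anti-CD28 at 0.5 μg/ml, with 5 μg/ml each of anti-IL-4 and anti-IFN-γ, and with TGF-β1 at 5 ng/ml. The culture thus held antibodies against ligands of Ifngr1 and Il4ra. The label on RNA extraction names colon, while the others name Treg cells made in culture. Whether the 2 arrays of each genotype stand for different mice or culture wells is in no label, so every p-value here rests on array-to-array spread that could be technical.

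Most of these receptors belong to the class I and class II families, which have no kinase of their own and signal through bound Janus kinases (JAKs) to STAT transcription factors. Each binding chain works with a partner chain, which several receptors share in many cases. The IL-6 receptor (Il6ra) and the IL-27 receptor (Il27ra) both use gp130 (Il6st), and the chains for IL-7 (Il7r), IL-4 (Il4ra) and IL-21 (Il21r) use the common gamma chain (Il2rg). The IL-1 receptors are built differently: Il1r1 signals through the adaptor MyD88, and Il1r2 binds IL-1 without signalling and acts as a decoy. In T cells, IL-6 and IL-21 favour Th17 cells over Treg cells, and IL-7 sustains resting T cells.

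The probes that the results turn on are shown by 30 of their 60 bases as deposited with the scanner output, 5′ to 3′. They lie at chromosome 15, 9436822 to 9436881 (Il7r), chromosome 7, 132721137 to 132721196 and 132712550 to 132712609 (Il4ra), and chromosome 7, 132776644 to 132776703 and 132774961 to 132775020 (Il21r), on build mm9 as the files give it. Capitals mark an alternating run of T and G in the second Il4ra probe and the letters AATAAA, the usual polyadenylation signal, in the second Il21r probe.
Il7r A_55_P2736590: ataccatgaccatgtgtcaaaggaagtggg
Il4ra A_51_P464478: accagaagccagggctcctgggatgtggaa
Il4ra A_55_P1966189: tgccagcacTGTGTGTGTGTGccacatgga
Il21r A_55_P2753460: ttctctacccaaagttctaggcctacgagt
Il21r A_55_P2730446: cactatcaacaAATAAAcattacttgactt
Both Il4ra probes carry the transcript NM_001008700, and the second lies 8587 bases before the first. The Il21r probes carry NM_021887 and the cDNA AK040073, and the second lies 1683 bases before the first. Which exon, intron or transcript end a probe covers was not analysed here.

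Junb was read first as a check of the labels. A probe on chromosome 8 at 87501881 to 87501940 had processed signals (background-subtracted intensity) of 47.2 and 31.7 on controls 1 and 2. On the arrays labelled Junbfl/flCd4-Cre 1 and 2 it read 4.11 and 1.47, not well above background, at least 5.71-fold lower (limma adjusted p = 0.0396). For this bound, as for every "at least" below, a dim signal was raised to the weakest signal that was well above background on its array. The brightest Junb probe (A_51_P159194) read 9791, 9072, 1053 and 10080 and so did not follow the label on 1 array. Which part of Junb is floxed was not stated in the labels, and a probe outside that part checks nothing, so genotypes are called by their labels. Correlations across probes were 0.981 and 0.978 within genotypes and 0.930 to 0.953 between them. All 4 arrays shared 1 slide and 1 scan, with the number 1 arrays in 1 row of the slide and the number 2 arrays in the other.

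None of the 16 tested receptor probes was called at an adjusted p under 0.05, against 6.78% of all tested probes (5.53% higher and 1.25% lower on the arrays labelled Junbfl/flCd4-Cre). An unadjusted p under 0.05 was reached by 6 of the 16 (37.5%), close to the 38.2% of all tested probes. The 6 were probes of Il7r, Il4ra, Il21r and Il27ra and a pair for Il6st. Log2 differences, given as Junbfl/flCd4-Cre minus control after each array's 75th percentile was subtracted, were positive for 9 probes and negative for 7, with a median of 0.07 against -0.01 over all tested probes. The genotypes did not overlap at 11 of the 16 probes (68.8%, 6 higher and 5 lower), against 72.2% of all tested probes (34.4% higher and 37.8% lower). A share near that of all probes is no result about these receptors. Differences also moved with brightness: the median over all tested probes was 0.68 among the dimmest 6722 and -0.35 among the brightest 6721, the outer 2 of 5 classes of brightness. Other processing called other numbers of receptor probes and of all probes alike. Scaling to the median called 4 of 16 (all lower) against 38.6% of all tested probes, normexp background with the 75th percentile 5 against 27.5%, eBayes with trend 4 against 15.6%, and a fit with the array number as a block 3 against 25.4%. Normexp background with quantile normalization called 1 against 1.01%, quantile normalization alone 0 against 1.93%, the filter for all 4 arrays 0 of 15 against 4.65%, and no filter or 1 array fewer 0 against 0%.

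**Figure D1:**
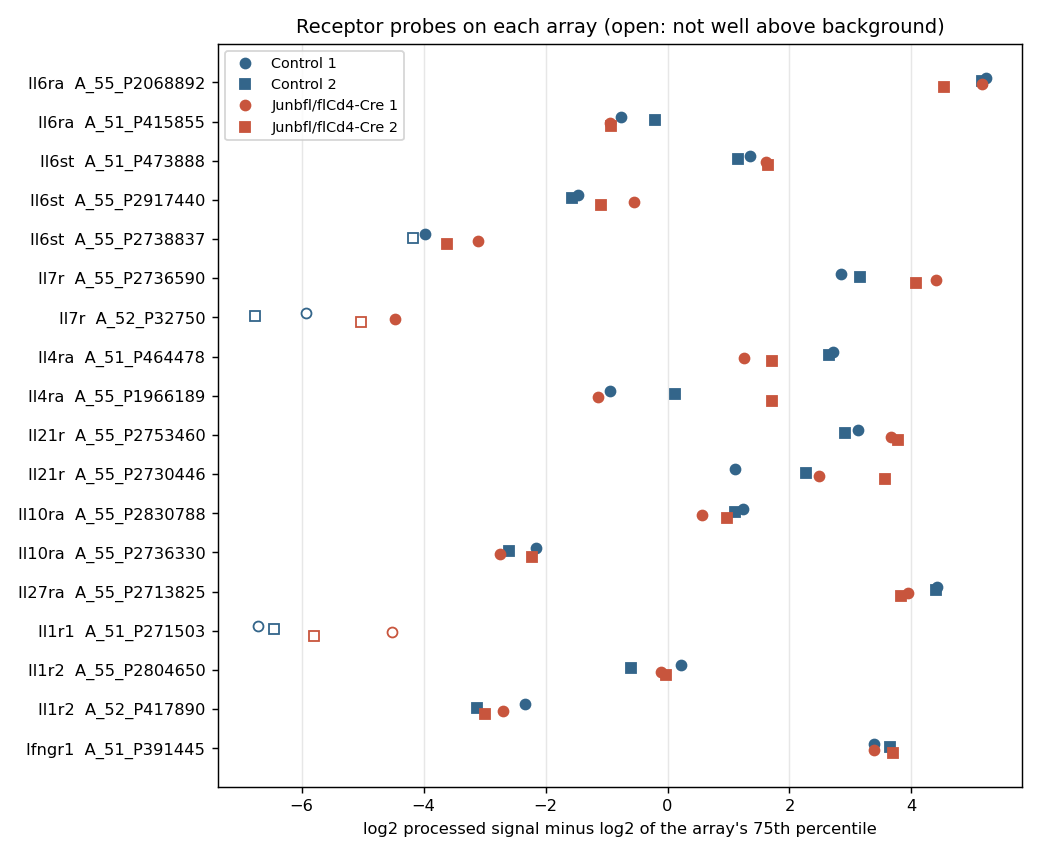
Scaled log2 signal (x axis, log2 processed signal minus log2 of the array's 75th percentile) of the 18 receptor probes (rows) on each of the 4 arrays, with open symbols where a spot was not well above background. The genotypes are apart for Il7r A_55_P2736590 and for Il4ra A_51_P464478, while Il4ra A_55_P1966189 reads -1.14 and 1.71 on the Junbfl/flCd4-Cre arrays.

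Il7r, the alpha chain shared by the receptors for IL-7 and TSLP, had the smallest p of the receptors. Its processed signals were 1081 and 1288 on controls, then 2542 and 1711 on the arrays labelled Junbfl/flCd4-Cre. Both of the latter stood above both controls. On the scaled log2 scale the means were 3.00 ± 0.22 and 4.25 ± 0.23 (SD, n = 2 each), and the log2 difference was 1.25 ± 0.22 (SE, 95% interval 0.66 to 1.85, 2.38-fold, limma adjusted p = 0.0537). It was 1.57 between the number 1 arrays and 0.93 between the number 2 arrays. Probes as bright as this one had a median of -0.35. A second Il7r probe, for the cDNA AK041838 and 5748 bases away, read 2.49, 1.33, 5.38 and 3.08, was well above background on Junbfl/flCd4-Cre 1 alone and was not tested. Its genotypes did not overlap, as at 72.2% of all tested probes. With the other arrays at background, this adds nothing to the first probe. In the authors' deposited table Il7r had a log2 difference of 1.52 and was called (adjusted p = 0.0484), as were 2.41% of its accessions (1.76% higher and 0.651% lower), and of the 11 receptor accessions there Il21r was the other one called.

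Il4ra, the chain that binds IL-4 and also serves the IL-13 receptor, gave opposite signs at its 2 probes. At A_51_P464478 the controls read 992 and 901 and the arrays labelled Junbfl/flCd4-Cre 284 and 331. Every control value stood above every Junbfl/flCd4-Cre value. The scaled means were 2.68 ± 0.05 and 1.48 ± 0.33 (SD, n = 2 each), with a log2 difference of -1.20 ± 0.22 (SE, 95% interval -1.80 to -0.59, 2.29-fold, limma adjusted p = 0.0571). It was -1.46 between the number 1 arrays and -0.93 between the number 2 arrays. At A_55_P1966189 the processed signals were 78.3 and 158 on controls, then 54.0 and 331 on Junbfl/flCd4-Cre arrays. Here the genotypes overlapped, and both number 1 arrays read below both number 2 arrays. Its log2 difference was 0.70 ± 1.07 (SE, 95% interval -2.26 to 3.65, limma adjusted p = 0.648), with -0.20 between the number 1 arrays and 1.59 between the number 2 arrays. It turned to -0.73 without Junbfl/flCd4-Cre 2 and was 2.13 without Junbfl/flCd4-Cre 1.

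The second Il4ra probe shares its sequence feature and its pattern over arrays with other probes. Number 1 minus number 2 was -1.08 in the controls and -2.86 in the arrays labelled Junbfl/flCd4-Cre, and the latter was larger in size than for 99.3% of tested probes. Its longest alternating run of G and T, marked in capitals above, has 12 bases. Of all tested probes, 111 (0.330%) held such a run of 12 or more, and 98.2% of these were dimmer on the number 1 array of each genotype, against 26.3% of the 33276 probes with runs under 8. Their median number 1 minus number 2 was -2.05 in the controls and -2.79 in the others, against 0.04 and 0.04. Their median genotype difference was 1.39 with a median SE of 1.18, against -0.02 and 0.20. Probes with runs of 8 to 11 lay between, with -0.58 and -1.0. Runs of the complementary letters C and A of 12 or more (63 probes) went the other way, with medians of 0.83 and 1.32. The brightest Junb probe holds a run of 13 and read 0.05 and -3.50 by the same measure. Il15ra, whose probe holds a run of 17, read 1999, 10140, 3417 and 29970. None of the 111 probes was called by limma in the genotype comparison. This feature was looked for after the values were seen, so its shares carry no test, and its part in the Il4ra, Junb and Il15ra values was not tested.

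**Figure D2:**
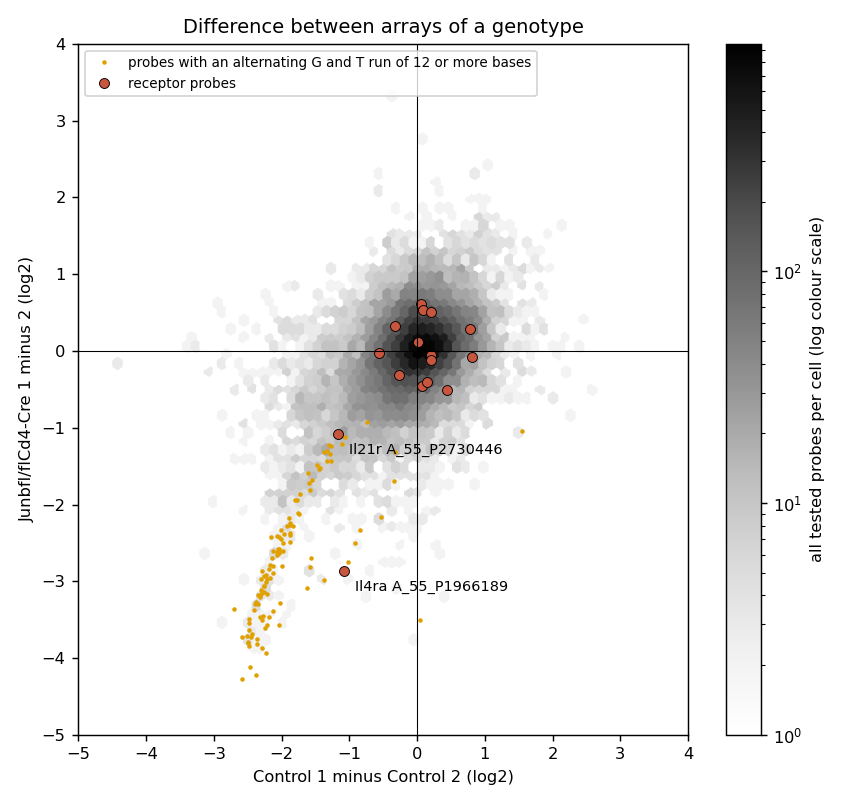
Control 1 minus Control 2 (x axis) against Junbfl/flCd4-Cre 1 minus 2 (y axis), both on the scaled log2 scale, for all tested probes (grey cells, darker for more probes on a log colour scale), probes with an alternating G and T run of 12 or more bases (yellow) and the receptor probes (red). The yellow points trail to the lower left, with medians of -2.05 and -2.79, and the Il4ra probe A_55_P1966189 lies near them at -1.08 and -2.86.

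In the authors' deposited table Il4ra has a single line, with a log2 difference of -0.14 (adjusted p = 0.868). Its 4 deposited log2 signals, 8.0, 8.39, 7.29 and 8.81, followed the mean of both Il4ra probes, with a root mean square distance of 0.0897 log2 after quantile normalization and centring. The distance was 0.577 from A_51_P464478 alone and 0.703 from A_55_P1966189 alone. For Il6ra, with a pair of probes that gave -0.34 and -0.45, the deposited signals were likewise nearer the mean of the probes (0.0326) than either probe (0.167 and 0.214). The same held for Il1r2 (0.125 from the mean, 0.16 and 0.277 from either probe). It also held for the Il6st transcript with a pair of probes (0.0507, then 0.115 and 0.134). For Il10ra it was otherwise, with a distance of 0.0726 from A_55_P2830788 alone, 0.179 from A_55_P2736330 alone and 0.0994 from their mean.

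Il21r, the chain that binds IL-21, lies next to Il4ra on chromosome 7, and the nearest probes of the genes are 53824 bases apart. At A_55_P2753460 the processed signals were 1321 and 1091 on controls, then 1517 and 1391 on Junbfl/flCd4-Cre arrays. After scaling the genotypes did not overlap, with means of 3.02 ± 0.15 and 3.73 ± 0.08 (SD, n = 2 each). The log2 difference was 0.70 ± 0.17 (SE, 95% interval 0.24 to 1.17, limma adjusted p = 0.0761), and the authors' deposited table gave 0.98 and called it (adjusted p = 0.0438). The interval lies wholly above 0, whereas that of Il4ra A_51_P464478 lies wholly below it, but neither probe was called in this fit. An unadjusted limma p under 0.05 was reached by 38.2% of all tested probes. The difference at A_55_P2753460 was 0.17 when arrays were scaled to their median. At A_55_P2730446 the signals were 324 and 696 on controls, then 672 and 1203 on Junbfl/flCd4-Cre arrays. They overlapped between genotypes before scaling and not after it, and number 1 read below number 2 in each genotype. The log2 difference there was 1.35 ± 0.57 (SE, 95% interval -0.22 to 2.93, limma adjusted p = 0.166), with 1.40 between the number 1 arrays and 1.31 between the number 2 arrays. The longest alternating G and T run of this probe has 6 bases. The authors' deposited table gave it 1.57 (adjusted p = 0.150).

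Il27ra, which pairs with gp130 to bind IL-27, read 3242 and 3086 on controls, then 1851 and 1439 on the arrays labelled Junbfl/flCd4-Cre. The control arrays were nearly equal and stood above the others. Its scaled means were 4.42 ± 0.01 and 3.89 ± 0.09 (SD, n = 2 each), a log2 difference of -0.52 ± 0.15 (SE, 95% interval -0.94 to -0.11, limma adjusted p = 0.0951). Probes of its brightness had a median of -0.35, and the authors' deposited difference was -0.18 (adjusted p = 0.378).

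Il6st, the shared gp130 chain, had 3 probes, all with positive differences in this scaling. A_51_P473888 read 387 and 322 on controls and 364 and 318 on Junbfl/flCd4-Cre arrays. These signals overlapped before scaling and not after it, and gave 0.38 ± 0.16 (SE, 95% interval -0.07 to 0.83, limma adjusted p = 0.171), turning to -0.16 when arrays were scaled to their median. A_55_P2917440 read 54.6, 49.1, 81.4 and 47.6 and gave 0.70 ± 0.24 (limma adjusted p = 0.120), and 0.16 when arrays were scaled to their median. The transcript of both these probes had 0.45 in the authors' deposited table (adjusted p = 0.117). A_55_P2738837, for the cDNA AK170020, read 9.64, 7.98, 13.9 and 8.27, with Control 2 not well above background, and gave 0.72 ± 0.24. This became 0.13 with quantile normalization and 0.01 with normexp background before it. The authors' deposited table gave 0.0 (adjusted p = 0.991). Probes as bright as the 3 Il6st probes had medians of -0.23, 0.01 and 0.68 in turn. Il6ra, which binds IL-6, gave signals of 5634, 5175, 4235 and 2352 at A_55_P2068892. After scaling, Junbfl/flCd4-Cre 1 lay 0.07 below Control 1 and Junbfl/flCd4-Cre 2 lay apart from the other arrays. The log2 difference was -0.34 ± 0.26 (SE, 95% interval -1.05 to 0.36, limma adjusted p = 0.364), and 0.01 with normexp background and quantile normalization. Its other probe A_51_P415855 read 89.3, 126, 62.1 and 53.5 and gave -0.45 ± 0.24 (adjusted p = 0.240).

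Il10ra, the chain that binds IL-10, read 358 and 311 on controls and 178 and 200 on Junbfl/flCd4-Cre arrays at A_55_P2830788. The scaled signals did not overlap, and the difference was -0.39 ± 0.21 (SE, 95% interval -0.97 to 0.18, limma adjusted p = 0.235). At A_55_P2736330 the signals were 33.9, 23.9, 17.9 and 21.6, which overlapped after scaling and gave -0.10 ± 0.28 (adjusted p = 0.802). Ifngr1, which binds IFN-γ, read 1579 and 1809 on controls and 1245 and 1305 on Junbfl/flCd4-Cre arrays. Its scaled means were 3.51 ± 0.18 and 3.54 ± 0.22 (SD, n = 2 each), with a difference of 0.02 ± 0.20 (SE, 95% interval -0.54 to 0.58, limma adjusted p = 0.941), and -0.51 when arrays were scaled to their median. The unscaled signals were lower on both Junbfl/flCd4-Cre arrays, whose 75th percentiles over probes were 119.4 and 101, against 151.2 and 144.7 on the controls.

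Of the IL-1 receptors, Il1r1 stood at background and Il1r2 gave differences smaller than the spread between the controls. Il1r2, the decoy, read 176, 95.8, 111 and 99.2 at A_55_P2804650 and 29.9, 16.7, 18.4 and 12.7 at A_52_P417890. At both probes Control 1 was the highest array and the genotypes overlapped, with differences of 0.12 ± 0.32 and -0.11 ± 0.32 (95% intervals -0.76 to 1.0 and -1.0 to 0.78). Il1r1, the signalling receptor, read 1.43, 1.65, 5.24 and 1.83, was not well above background on any array and was not tested.

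**Figure D3:**
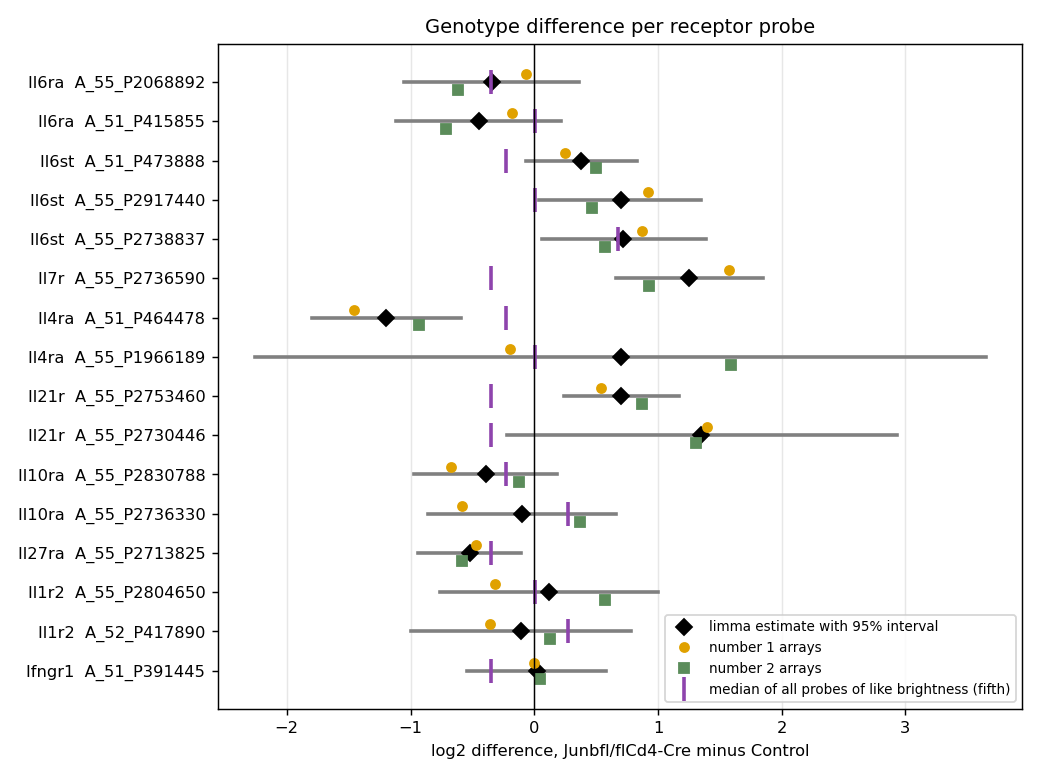
Log2 difference, Junbfl/flCd4-Cre minus control (x axis), of the 16 tested receptor probes (rows), with the limma estimate and its 95% interval, the difference within number 1 and number 2 arrays, and the median of all tested probes in the same of 5 classes of brightness. Il7r lies at 1.25 where the median of its class is -0.35 and Il4ra A_51_P464478 at -1.20 where it is -0.23, and Il4ra A_55_P1966189 has the widest interval, -2.26 to 3.65.

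The chains that pair with these receptors gave small negative differences, each gene being represented by its brightest probe in this and the following lists, and the signs hold for this scaling. Il2rg, the common gamma chain, read 8757 and 7749 on controls and 6244 and 5063 on Junbfl/flCd4-Cre arrays and gave -0.12 ± 0.15 (limma adjusted p = 0.576). Il1rap (-0.13), the partner of IL-1 receptors, Il10rb (-0.09), the partner of Il10ra, and Ifngr2 (-0.13), the partner of Ifngr1, gave adjusted p-values of 0.579, 0.718 and 0.559. Il13ra1, the partner of Il4ra for IL-13, was not measured. Here and below, a gene named as not measured was on the array, but none of its probes passed the filter for testing. None of the 4 measured partner chains was called, and their median was -0.12, against 8.05% called (6.78% higher, 1.27% lower) and a median of 0.01 over 22471 genes.

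Of the other cytokine receptors 27 of 34 were measured, 3 rose and 1 fell, where 6.78% of all genes were called higher and 1.27% lower. Of the 27, 12 lay in the 2 brightest of the 5 classes of brightness. The median of the 27 was 0.32 and turned to -0.21 when arrays were scaled to their median. The calls moved with the processing: quantile normalization alone gave 1 higher and 1 lower, normexp background before it 0 and 1, and 9 and 2 were called with normexp background and the 75th percentile. Over all 33606 tested probes the same settings in turn called 473 higher and 177 lower, 249 and 89, and 4399 and 4840. Il12rb1, a chain of the IL-12 and IL-23 receptors, read 1066 and 1064 on controls and 130 and 101 on Junbfl/flCd4-Cre arrays and fell by 2.79 ± 0.15 on the log2 scale (SE, limma adjusted p = 0.0265). Il1rl1, the IL-33 receptor, rose from 14.9 and 19.0 to 61.6 and 33.8 (1.87 ± 0.30, adjusted p = 0.0480), with log2 differences of 0.52 and 0.78 in those normexp settings. Il22ra1, which binds IL-22, rose from 123 and 205 to 468 and 452 (1.97 ± 0.32, adjusted p = 0.0498). Cntfr, which binds ciliary neurotrophic factor, was not well above background on the controls and was at least 2.35-fold higher (adjusted p = 0.0265). Its p-value rests on control signals at background, and its fitted difference of 3.37 became 0.22 and 0.53 in the normexp settings. Among the ligands 5 of 12 were measured. Il1b, one of the ligands of Il1r1 and Il1r2, was not well above background on the controls and was at least 1.79-fold higher (adjusted p = 0.0270). That p-value rests on control signals at background, and the fitted difference of 2.95 became 0.15 and 0.46 in the normexp settings. Ifng, the ligand of Ifngr1, was at least 1.36-fold lower (adjusted p = 0.0468), although its difference turned to 0.16 with normexp background scaled to the 75th percentile. Il4, Il6, Il7 and Il10 were among the 7 not measured, although all 12 ligands were on the array.

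Downstream genes were read from the same fit, in which 8.05% of all genes were called and 11123 of 22471 had a negative difference. Over all 33606 tested probes, scaling to the median called 10567 lower and 2405 higher. Normexp background with the 75th percentile called 4840 lower and 4399 higher. The list counts given below for those settings are to be read beside these. Most of these downstream genes lay in the 2 brightest of the 5 classes, whose medians were -0.23 and -0.35: 10 of 11 JAK and STAT genes, 8 of 11 of IL-1 receptor signalling, 9 of 10 of feedback and shedding, and 8 of 10 STAT3 targets. None of 11 JAK and STAT genes was called (median 0.17, and -0.37 when scaled to the median), with Stat4 at 0.56 and Stat5a at 0.36 having the smallest p-values (limma adjusted p = 0.150 and 0.169). Another Stat5a probe gave -0.42. None of 11 genes of IL-1 receptor signalling was called, and 8 were negative (median -0.37), while scaling to the median called 7 lower and normexp background with the 75th percentile 3 lower and 1 higher. The smallest p-values were those of Map3k7, which encodes the kinase TAK1, at -0.86 ± 0.15 (limma adjusted p = 0.0553), and Irak1bp1 at -1.31 ± 0.27 (adjusted p = 0.0658). Feedback inhibitors and shedding enzymes held 9 of 10 negative and none called (median -0.26), and 5 called lower both when scaled to the median and with normexp background and the 75th percentile. Cish, a feedback inhibitor induced by STAT5, read 9359, 7123, 1096 and 1691 and gave -2.15 ± 0.36 (adjusted p = 0.0501). Socs3, which blocks signalling through gp130, read 890, 695, 156 and 266 and gave -1.52 ± 0.40 (adjusted p = 0.0827). Adam10 and Adam17, proteases that can shed the IL-6 receptor, gave -0.01 and -0.02. Of 10 genes known as targets of STAT3 downstream of IL-6 and IL-10, a list that holds Il4ra and Junb themselves, Fos rose (1.23 ± 0.20, adjusted p = 0.0477) and Myc fell (-1.27 ± 0.19, adjusted p = 0.0453), and 8 were negative (median -0.66). Those 8 include Il4ra and the brightest Junb probe, which did not follow the label on 1 array (-1.10 ± 1.23). With quantile normalization 0 of the 10 were called, and when scaled to the median 5 were called lower. When any 1 of the 4 arrays was left out, limma made no call in any of these lists, nor among all tested probes, of which 7315 to 11361 had an unadjusted p under 0.05.

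**Figure D4:**
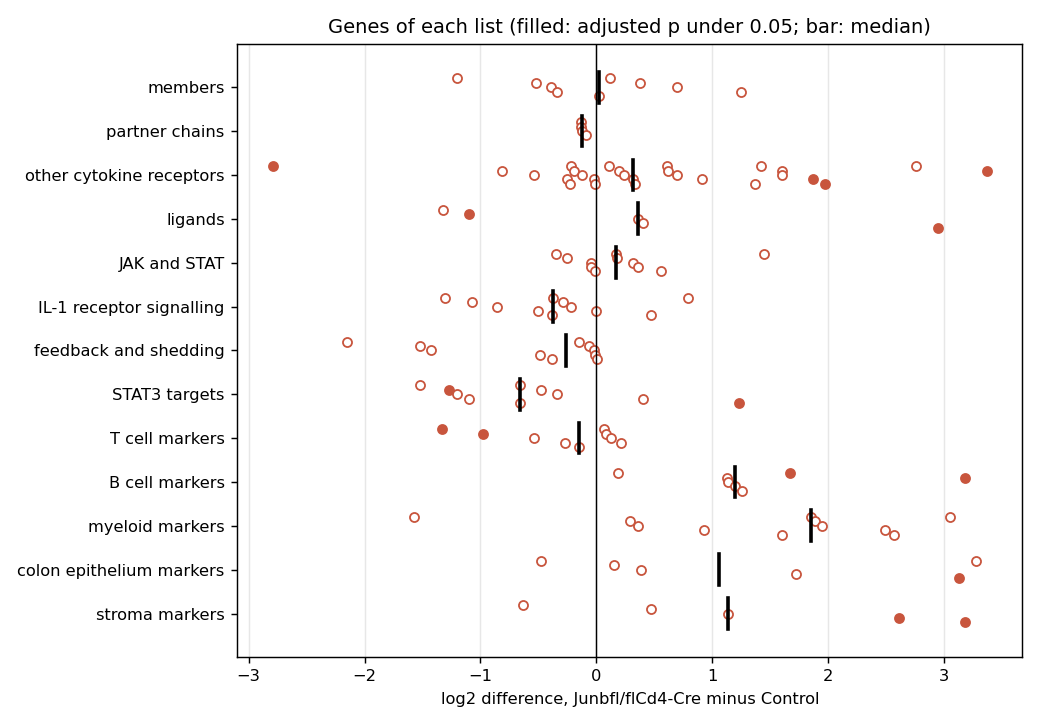
Log2 difference, Junbfl/flCd4-Cre minus control (x axis), of each measured gene by its brightest probe, in rows by list, with filled points for an adjusted p under 0.05 and a bar at the median. The receptors scatter about 0.02, the partner chains lie between -0.13 and -0.09, and the myeloid markers have a median of 1.85.

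General T cell markers were present, with summed signals over the 75th percentile of 976 and 968 on controls, then 877 and 792 on Junbfl/flCd4-Cre arrays. None of them is particular to Treg cells, so they do not tell Treg cells from other CD4 T cells. Of the 9 T cell markers measured, Cd2 and Thy1 fell (-1.33 and -0.98, limma adjusted p = 0.0495 and 0.0452). Of all genes 6.78% were called higher and 1.27% lower. All 7 measured B cell markers were positive, Ms4a1 and Ebf1 rose (3.18 and 1.67), and the sums were 3.95, 1.72, 8.17 and 5.61. With normexp background and quantile normalization these 2 differences were 1.76 and 0.24. The 2 brightest of the 5 classes of brightness held 1 of these 7 and 3 of 11 myeloid markers. They held 0 of 6 colon epithelium and 1 of 5 stroma markers. The dimmest class had a median of 0.68 over all tested probes. Of 11 measured myeloid markers 10 were positive and none was called (median 1.85, and 0.34 with normexp background and quantile normalization), with sums of 31.1, 22.8, 63.3 and 35.7. These sums were mostly Itgam, which read 3582, 1941, 6558 and 2121 (0.93 ± 0.58, SE). Csf1r gave 1.60 at its brightest probe and -0.67 at another. Cd14 (2.57) and Fcgr3 (1.89) had the smallest p-values (limma adjusted p = 0.0560 and 0.0563), and Adgre1, Itgax and Cd33 were not measured. Colon epithelium markers summed to 0.658, 0.644, 1.33 and 1.17, with Slc26a3 at least 8.44-fold higher and Krt19, Krt20, Cdh1, Vil1 and Muc2 not measured. Slc26a3 was not well above background on the controls. Its fitted difference of 3.13 became 0.64 with normexp background and quantile normalization. Of 5 measured stroma markers 4 were positive (median 1.14). Col1a1 and Dcn were at least 1.88-fold and 3.22-fold higher, but neither was well above background on the controls. Both were called, which rests on control signals at background. With normexp background and quantile normalization their fitted differences of 2.61 and 3.18 became 0.15 and 0.24, and 0 of the 5 were called. Summed stroma signals of 28.9, 24.3, 17.7 and 18 were mostly Acta2, which read 4275, 3433, 1962 and 1730 (-0.63). Another Acta2 probe had a positive difference. In RNA of whole cultures a change in the number of cells of a type and a change in RNA per cell cannot be told apart, and the part of these cells in the receptor values was not tested.

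The 3 genes whose signals over the 4 arrays were most like those of Il7r, by root mean square distance of centred scaled log2 signals among 14026 genes with a plain symbol and a tested probe, were Lzts2 (0.0330), Gbp6 (0.0374) and Apobec2 (0.0477). With 4 arrays this likeness is a description. In RefSeq promoters of build GRCm38.p6 (250 bases before to 50 after the start), 8 of the 10 receptors had an entry, with 9 promoters in all. The AP-1 letters TGANTCA, on either strand, were in 0 of the 9 and in 7.81% of 32851 promoters, and TGACGTCA in 0 of the 9 and 1.79%. This says only that these letters are not in these windows. The letters AATAAA were in 4 of the 18 receptor probes (22.2%), tested or not, against 9.77% of all 56310 probes and 10.4% of tested probes. With so few receptor probes this too is a description.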

How the data were processed

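Per the file headers and the submitters' processing notes, scans were read with Agilent Feature Extraction 11.5.1.1, and the deposited processed intensity is background-subtracted but not scaled between arrays. The deposited flags mark signals well above background and outlying spots. The table deposited by the authors holds log2 signals, log2 differences, p-values and limma's t and log odds scores per accession. The steps behind them were not stated. Spots flagged as outlying (108 to 215 per array) were left out, spots of a probe were averaged, and log2 signals had the array's 75th percentile subtracted. A probe was tested if both arrays of 1 genotype or of both were well above background. Well above background were 59.3% to 66.3% of non-control spots, and no spot was saturated. The number of arrays limits the precision. Genotypes were compared with limma 3.58.1 (R 4.3.3), without covariates, with Benjamini-Hochberg adjustment over all 33606 tested probes, and a call is an adjusted p under 0.05. For lists, each gene was read by its brightest tested probe, keeping that adjustment, and a gene without a tested probe counts as not measured. An exact permutation test of 2 against 2 arrays cannot go below 0.333. Fits were tested on simulated data. Names were updated through a RefSeq table of GRCm38.p6. Every receptor probe is named, and of each list all called genes, otherwise the 2 with the smallest p, and all partner chains. Adam10, Adam17, Il15ra and the alternating runs were chosen after the values were seen. The receptors and lists were chosen with earlier results of these data known. Alternatives were median and quantile scaling, normexp background, other filters, a replicate block, eBayes with trend, 1 probe per gene and leaving out each array.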

Additional observations from a re-analysis of the deposited data

How the results depend on the processing

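The count of receptor probes called was 0 as reported, with quantile normalization, without the filter, with all 4 arrays above background and with 1 probe per gene. It was 4 when arrays were scaled to their median (all lower), 1 with normexp background and quantile normalization, 5 with normexp background and the 75th percentile, 4 with eBayes trend, 3 with a replicate block and 2 in the authors' deposited table. Over all tested probes the 2277 calls (81.6% higher) became 12972 (18.5% higher, with the median of all probes at -0.54), 650, 338 and 9239 (47.6% higher) under those 4 normalizations in the order median, quantile, normexp with quantile and normexp with 75th percentile. They became 5239 with trend (53.3% higher), 8522 with the block (67.4% higher), 1377 with all 4 arrays above background and 0 without the filter, where 12028 of 56310 probes had an unadjusted p under 0.05. The 15 calls over all lists became 41, 6, 4 and 44 under the same normalizations, 32 with trend, 37 with the block and 0 without the filter. Leaving out 1 array gave 0 to 0 calls for receptors, lists and all probes.

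With the replicate block, Il7r (adjusted p = 0.0350), Il4ra A_51_P464478 (0.0324) and Il21r A_55_P2730446 (0.0164) were called. Deviations of same-numbered arrays correlated at 0.45 over probes, but with only 2 pairs this does not show that the numbers pair samples, and the number also equals the slide row. Il7r ranged from 0.72 to 1.54 over the other alternatives, Il21r A_55_P2753460 from 0.17 to 0.99 and Il4ra A_51_P464478, apart from the authors' accession value, from -1.73 to -0.87. Signs turned when scaled to the median for Il6st A_51_P473888 (-0.16), Il1r2 A_55_P2804650 (-0.41) and Ifngr1 (-0.51), with normexp and quantile for Il6ra A_55_P2068892 (0.01), and with normexp and the 75th percentile for Il10ra A_55_P2736330 (0.15), Il1r2 A_52_P417890 (0.17) and Ifngr1 (-0.10). The authors' value for Il1r2 (-0.11) is per accession, which has 2 probes, and is not that of A_55_P2804650 alone. Without 1 array, signs turned for Il10ra A_55_P2736330 (-0.36 to 0.15), Il1r2 A_52_P417890 (-0.50 to 0.27), Il1r2 A_55_P2804650 (-0.28 to 0.53), Ifngr1 (-0.13 to 0.18) and Il4ra A_55_P1966189 (-0.73 to 2.13). The cause of these changes was not tested. Slide and scan could not be fitted as blocks, since each holds all arrays. Signals near background limit Il1r1 and the dim Il7r probe.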
